A study of Mus musculus with 6 samples.

Results

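The mRNAs of the nuclear-encoded oxidative phosphorylation subunits were examined in primary mouse lung fibroblasts (LFs) exposed to TGFβ. The members were the protein-coding Ensembl genes whose mouse symbol begins with Nduf, Uqcr, Cox4, Cox5, Cox6, Cox7, Cox8 or Atp5, or is Cyc1, Cycs, Sdha, Sdhb, Sdhc or Sdhd, with a mean of at least 10 raw counts over the 6 libraries. There were 88 such genes among the 55364 listed, and all 88 were among the 10346 genes tested. The name rule found 96 genes before the count minimum, and the 8 left out were Cox6b2, Ndufaf1, Atp5s, Cox7a1 and Cox4i2, with means of 9.83 counts or less, and Cox7b2, Cox8c and a second Ensembl gene named Atp5o, with 0 counts in every library. Just inside the minimum were Ndufaf5 and Cox6a2, with means of 13.7 and 14 counts. The members comprised 36 subunits of complex I, 7 assembly factors of complex I, 4 subunits of complex II, 9 of complex III, cytochrome c, 15 genes of complex IV and 16 of complex V.

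Oxidative phosphorylation takes place at the inner mitochondrial membrane. Complex I accepts electrons from NADH and complex II accepts them from succinate. Both pass them to ubiquinone, from which complex III hands them to cytochrome c and complex IV hands them to oxygen. Complexes I, III and IV move protons out of the matrix while doing so, and complex V, the ATP synthase, lets the protons back and makes ATP. Most subunits are encoded in the nucleus and imported into the mitochondrion, while a few of the innermost subunits of complexes I, III, IV and V are encoded by mitochondrial DNA. Fibroblasts that are activated by TGFβ build contractile fibres and secrete matrix, both of which draw on ATP.

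The mice that gave the LFs were littermates on the C57Bl6/J background, 8 to 10 weeks of age. The cells were starved of serum and then all were given 10 ng/ml TGFβ for 24 h, so that the 6 libraries share this treatment and there is no untreated library among them. There were 3 libraries of wt LFs and 3 of LFs that GEO labels TKS5 knockout, here written TKS5 KO. The study describes the mutant mice as heterozygous, Tks5+/-, and reports that crosses gave no homozygous mice. Its knockout alleles lack an internal exon of Sh3pxd2a, the gene of the podosome scaffold protein Tks5. An allele that also holds a LacZ reporter and another without it are both called Tks5+/-. Which of them these LFs carried is not stated. The exon was removed with a Cre driven by the CMV promoter, which acts in all tissues, so the loss was not limited to fibroblasts. The study calls its samples biologically independent, but the labels tie no library to an animal or culture, so the p-values measure the spread between these libraries. RNA was measured by Quant-Seq, which starts cDNA synthesis from the poly(A) tail and so counts transcripts by their 3′ ends.

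Sh3pxd2a (ENSMUSG00000053617) was not lower in the libraries labelled TKS5 KO. It had 205, 190 and 284 counts in wt libraries 1, 2 and 3, and 238, 258 and 260 counts in the libraries labelled TKS5 KO. The log2 fold change was 0.29 with a standard error of 0.20, and the adjusted p of edgeR's quasi-likelihood test was 0.249. A count at the end of the transcript does not read an internal exon, so it cannot check the deletion itself. The study reports less Tks5 mRNA in Tks5+/- than in wt LFs by Q-RT-PCR, a drop that these counts do not show. Its assays in lung tissue used primers that detect loss of the deleted exon, and the primers used on the LFs are not stated. The PCR and these counts may therefore read different parts of the mRNA. Whether the labels hold was not tested, and every direction below rests on them. With the corrections for transcript length described further on, Sh3pxd2a was called higher, with log2 fold changes of 1.00 and 1.01, and with library totals alone it was at -0.13.

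The raw counts added up to between 1344507 and 2369882 per library. Defining markers of other cells differed between the groups. The 12 macrophage markers summed to 417, 350 and 2109 CPM (counts relative to the TMM-scaled library size) in the wt libraries and to between 123 and 136 CPM in those labelled TKS5 KO. Of the 9 of these markers that were tested, 6 were called lower and 0 higher, and the defining macrophage marker Adgre1 had 7, 10 and 34 counts in the wt libraries and 0 counts in each library labelled TKS5 KO. Pecam1, a defining marker of endothelial cells, had 7, 10 and 21 counts against 0 in each, and 4 of the 5 endothelial markers tested and all 3 mesothelial markers tested were called lower. The 12 fibroblast markers, all of them tested, summed to between 14414 and 16163 CPM in the wt libraries and to between 17821 and 19926 CPM in the others, with 4 called higher and 2 lower, or 2 higher and 5 lower when libraries were scaled by their totals alone. Most of these sums came from S100a4, at 9108 CPM on average in wt libraries, which was not called. Of the epithelial markers, 2 were tested, of which Ager was called higher and Cldn4 lower, and of the 7 smooth muscle and pericyte markers tested 2 were called higher and 3 lower. The type of transcript read also differed. The transcript under the median read was between 2490 and 2618 bases long in the wt libraries and between 1826 and 2019 bases long in those labelled TKS5 KO, by the longest annotated transcript of each gene. Counts of the Y chromosome genes Ddx3y, Eif2s3y, Uty and Kdm5d summed to 166, 196 and 273 in the wt libraries. In those labelled TKS5 KO they summed to 60, 37 and 42, and Xist had 0 counts in every library. In bulk RNA, fewer cells of a type and less RNA per cell cannot be told apart. The part of these differences in the results below was not tested, except where a value is given.

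Most oxidative phosphorylation mRNAs were higher in the libraries labelled TKS5 KO. Of the 88 members, 65 were called higher, where 22.8% of all genes tested were, and 3 were called lower, where 22.1% of all genes tested were. A gene was called where the adjusted p was under 0.05 and the fold change at least 1.2. The remaining 20 members were not called. The median log2 fold change of the members was 0.96, with quartiles of 0.60 and 1.47, against a median of -0.05 over all genes tested. In 68 members each CPM of a library labelled TKS5 KO was above each wt CPM, which held for 26.1% of all genes tested, and in 4 members each was below, which held for 27.6%. The members' log2 fold changes ran from -1.06 for Cox8b to 2.58 for Sdhd. When libraries were scaled by their totals alone, the median over all genes tested was -0.47 and that of the members 0.54, so that the members stood 1.00 above all genes where they stood 1.01 above them with TMM scaling. With totals alone 46 members were called higher and 6 lower, and over all genes the calls were split into 1362 higher and 3944 lower, where TMM scaling gave 2356 and 2286.

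**Figure D1:**
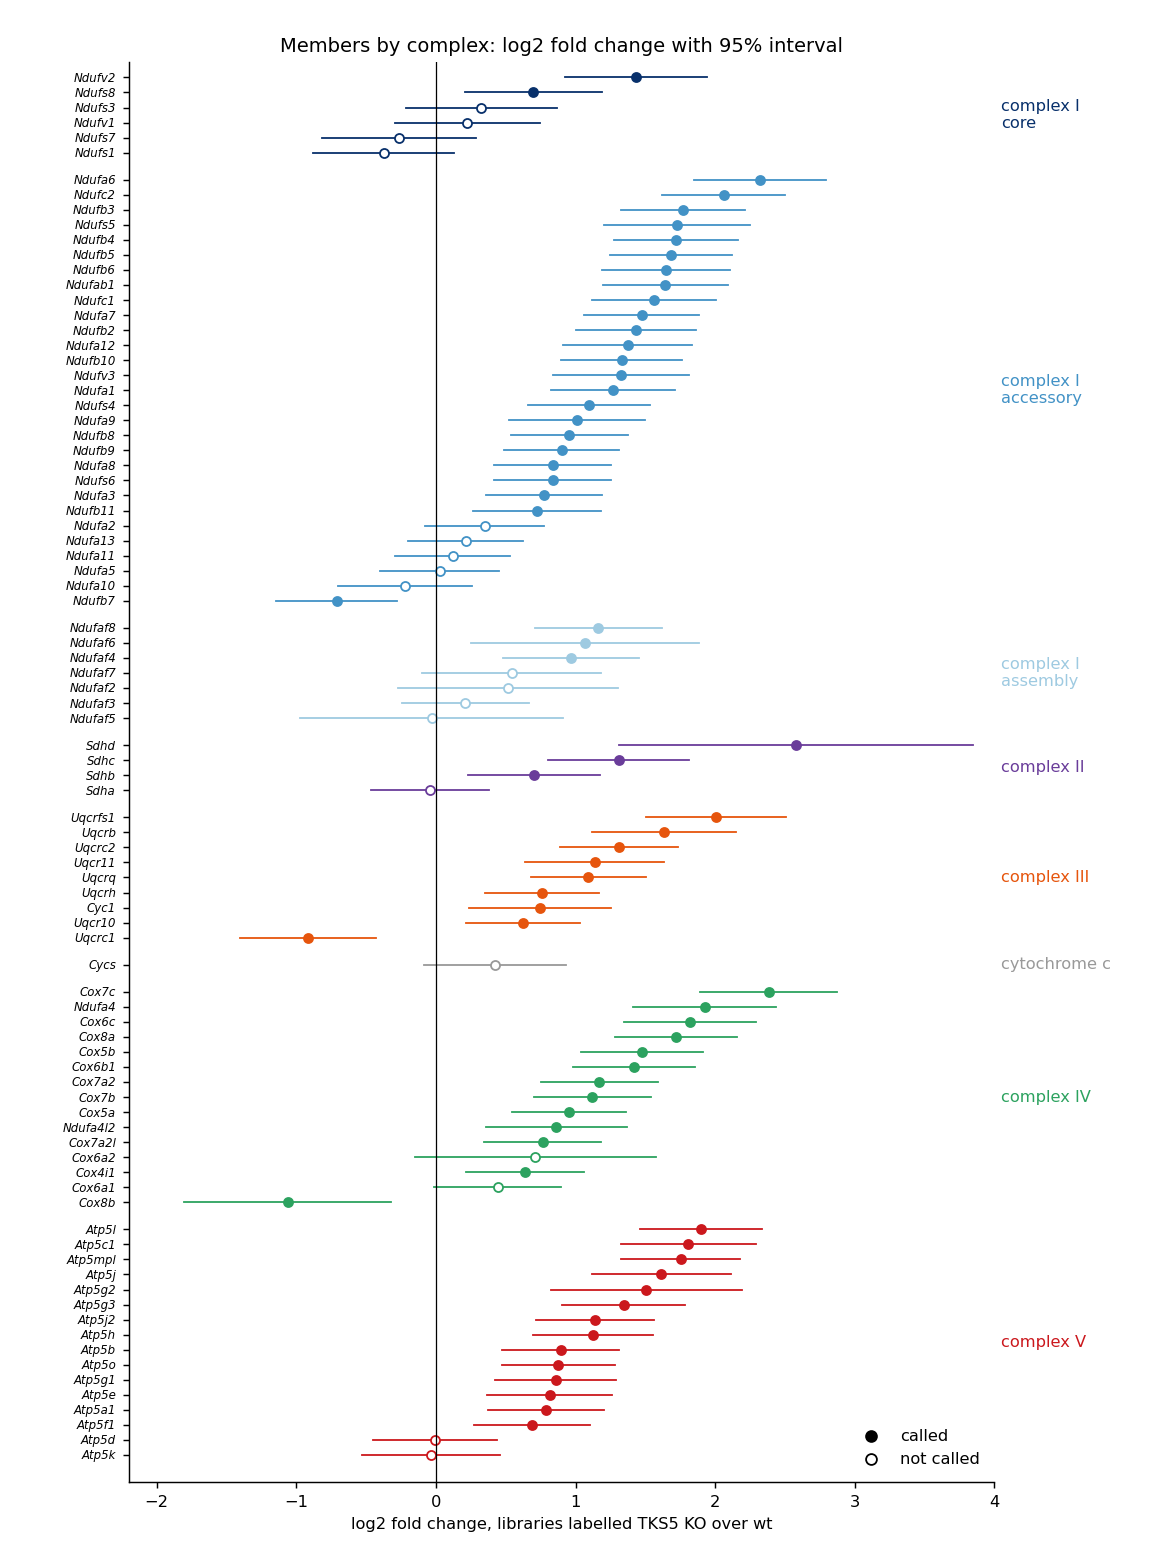
Log2 fold change of 87 of the 88 members between the libraries labelled TKS5 KO and wt libraries, 3 each, grouped by complex, with bars for the 95% interval of the edgeR fit and filled points for called members. Values of 65 members are filled and to the right of 0, those of Ndufb7, Uqcrc1 and Cox8b are filled and to the left, and 4 of the 6 core subunits of complex I shown are open.

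The members took a larger part of each library labelled TKS5 KO. They held 1.88%, 1.86% and 1.86% of all counts in wt libraries 1, 2 and 3, and 3.10%, 3.50% and 3.16% in those labelled TKS5 KO. The widest 95% Wilson interval of these shares, which covers counting error only, was 3.48% to 3.53%, so the 2 groups lay far apart against the depth. The summed CPM were 16272, 16399 and 16373 in the wt libraries and 33661, 43261 and 37699 in the others. The wt libraries were thus within 1 percent of each other, while library 2 labelled TKS5 KO was the highest of its group, and the ratio of the means was 2.34. Wt library 3, which held the most macrophage marker counts, lay between the other wt libraries in the summed CPM of members. This compares wt libraries only, and the part of other cells in the difference between the groups was not tested. In 49 of the 88 members library 2 labelled TKS5 KO was the highest of all 6 libraries, and in 22 it was library 3 of that group. The median coefficient of variation of a member was 12.5% among the wt libraries and 16.1% among those labelled TKS5 KO, with the widest at 39.4% for Atp5k in wt and 68.4% for Sdhd in the others.

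**Figure D2:**
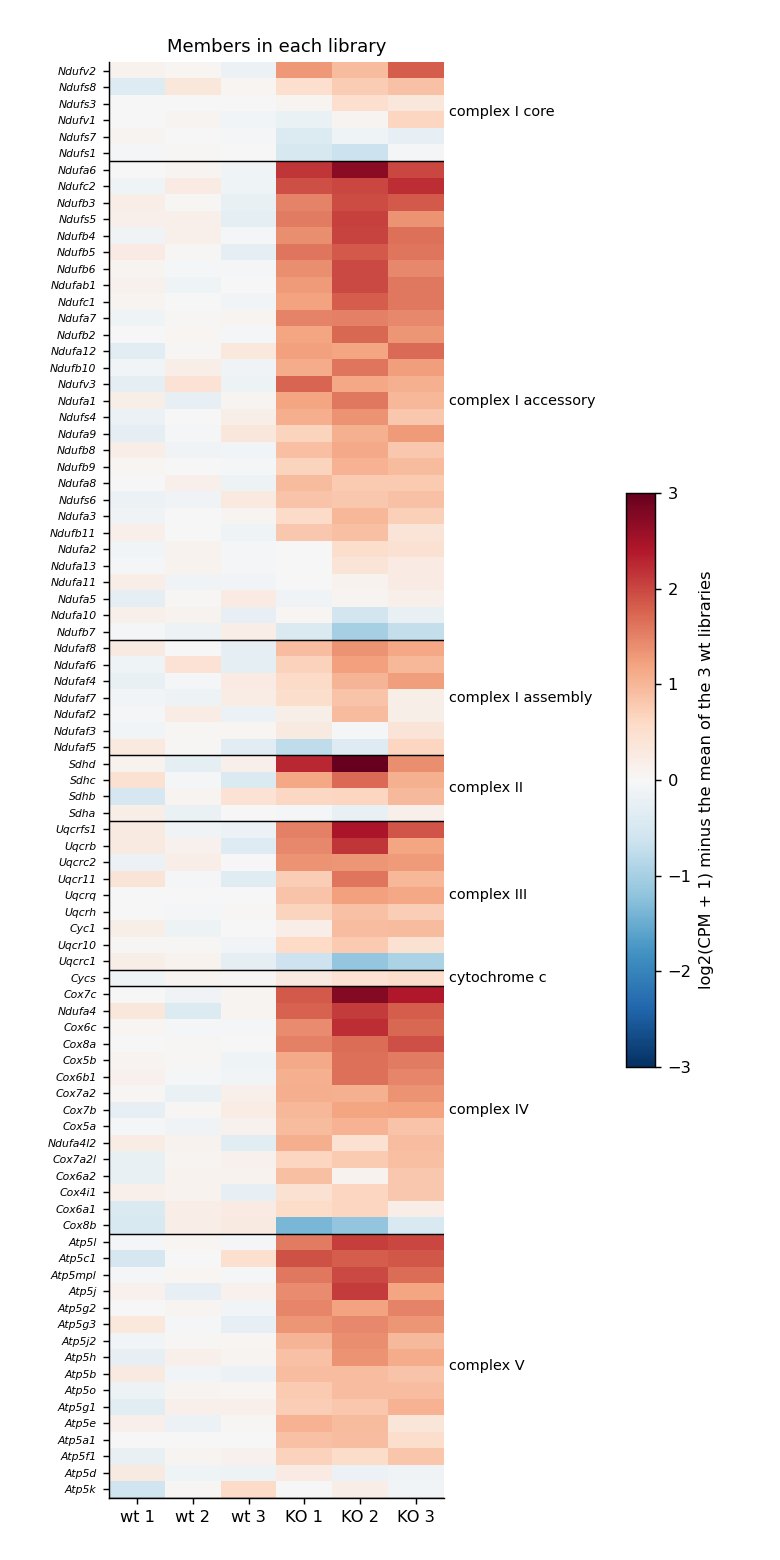
Each row is 1 of 87 members and each column a library, with log2(CPM + 1) shown as its difference from the mean of the 3 wt libraries on a colour scale from -3 to 3. The columns labelled KO (TKS5 KO) are red for most rows of the accessory subunits of complex I and of complexes III, IV and V, and pale or blue for most core subunits of complex I, Sdha, Uqcrc1, Cox8b, Atp5d and Atp5k.

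Complex I showed different values for its core and its accessory subunits. The core subunits are those kept from bacteria to mammals that carry the electrons and pump the protons, and the accessory subunits surround them. Of the 29 accessory subunits, 23 were called higher and 1 lower, with a median log2 fold change of 1.27. Of the 7 core subunits encoded in the nucleus, 2 were called higher and 0 lower, with a median of 0.23. The direction of the core median depended on the scaling, since it was -0.20 with library totals alone, where 1 core subunit was called higher and 2 lower, while that of the accessory subunits was 0.84 with 19 called higher and 2 lower. No test of the difference between core and accessory subunits was made.

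Ndufa6, an accessory subunit at the joint of the peripheral arm and membrane arm, had the smallest adjusted p and the highest mean count of complex I. The gene (ENSMUSG00000022450) lies at chr15:82350140-82354322 on the reverse strand of GRCm38. Its counts were 510, 644 and 813 in the wt libraries and 2602, 3657 and 2527 in those labelled TKS5 KO, so the groups did not overlap. This was 325 ± 21.8 CPM (SD, n = 3) against 1620.3 ± 455 CPM (SD, n = 3), a log2 fold change of 2.32 with a standard error of 0.23 (edgeR adjusted p = 8.56e-08). The exact two-sided permutation test of the CPM gave p = 0.1, the smallest that 3 libraries against 3 allow, as it did for 72 of the 88 members. Ndufc2, of the membrane arm, had 79.3 ± 12.4 CPM (SD, n = 3) in wt libraries, 331 ± 36.0 CPM (SD, n = 3) in those labelled TKS5 KO and a log2 fold change of 2.06 (edgeR adjusted p = 1.39e-07). Of the further accessory subunits called higher, in order of adjusted p, the log2 fold changes of Ndufb3, Ndufb5, Ndufb4, Ndufab1, Ndufb6 and Ndufa7 were 1.77, 1.68, 1.72, 1.64, 1.65 and 1.47. Ndufab1 is the acyl carrier protein of the mitochondrion and also serves fatty acid and lipoic acid synthesis.

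Ndufb7, an accessory subunit on the intermembrane space side, was the only member of complex I called lower. Its counts were 354, 395 and 724 in the wt libraries and 317, 199 and 278 in those labelled TKS5 KO. In CPM the groups did not overlap, with 236 ± 29.4 (SD, n = 3) against 144 ± 28.8 (SD, n = 3), and the log2 fold change was -0.71 with a standard error of 0.21 (edgeR adjusted p = 0.00837). Without library 2 labelled TKS5 KO the call of Ndufb7 was lost, with a log2 fold change of -0.55. The 5 accessory subunits that were not called were Ndufa2, Ndufa13, Ndufa11, Ndufa5 and Ndufa10, with log2 fold changes between -0.22 and 0.35.

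Of the core subunits, Ndufv2, an iron-sulfur subunit of the NADH-oxidising module, was called higher with a log2 fold change of 1.43 (edgeR adjusted p = 6.13e-05). It had 51, 59 and 72 counts in the wt libraries and 139, 101 and 213 in those labelled TKS5 KO. Ndufs8, which carries iron-sulfur clusters on the way to ubiquinone, was called higher with a log2 fold change of 0.70 (edgeR adjusted p = 0.0202), and that call was lost without wt library 1 or without library 3 labelled TKS5 KO. The call of Ndufs8 was also lost with library totals alone, at 0.27, and with either correction for transcript length, at 0.16 and 0.14. The other core subunits named here were chosen after their values were seen. Ndufv1, which binds the flavin that takes electrons from NADH, had 36.1 ± 2.39 CPM (SD, n = 3) in wt libraries and 42.0 ± 13.2 CPM (SD, n = 3) in those labelled TKS5 KO, and the groups overlapped. Ndufs1, the largest iron-sulfur subunit, had 57, 72 and 103 counts against 49, 41 and 71, with a log2 fold change of -0.37 and a 95% interval from -0.88 to 0.13 (edgeR adjusted p = 0.221). The log2 fold changes of Ndufs3 and Ndufs7, which lie towards the ubiquinone site, were 0.33 and -0.26, with adjusted p of 0.324 and 0.437 by the edgeR test. None of these 4 passed the test with TMM scaling, and the upper ends of their 95% intervals were between 0.13 and 0.87.

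Of the 7 assembly factors of complex I, 3 were called higher and 0 lower. Ndufaf8 had the smallest adjusted p and the highest mean count, with 51.5 ± 9.81 CPM (SD, n = 3) in wt libraries and 114 ± 16.1 CPM (SD, n = 3) in those labelled TKS5 KO, a log2 fold change of 1.16 (edgeR adjusted p = 0.000188). Ndufaf4 and Ndufaf6 were called higher with log2 fold changes of 0.97 and 1.07, the latter on 17 counts on average and lost in 4 of the 6 fits that left out 1 library. With library totals alone, or with the correction for the principal coding transcript described further on, 1 of the 7 was called higher, and Ndufaf4 was not called with library totals. Ndufaf5 had the lowest log2 fold change of them, -0.03.

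Complex II differed among its 4 subunits. Sdha, the flavoprotein that oxidises succinate in the tricarboxylic acid cycle, had 268, 245 and 406 counts in the wt libraries and 264, 219 and 326 in those labelled TKS5 KO. This was 151 ± 20.7 CPM (SD, n = 3) against 147 ± 19.4 CPM (SD, n = 3), with overlapping groups, a log2 fold change of -0.04 and a 95% interval from -0.47 to 0.38. Sdhb, the iron-sulfur subunit, was called higher with a log2 fold change of 0.70 (edgeR adjusted p = 0.0151), and this call was lost without wt library 1 or without library 3 labelled TKS5 KO. The call of Sdhb was also lost with library totals alone, at 0.28, and with either correction for transcript length, at 0.27 and 0.22. Sdhc and Sdhd anchor the enzyme in the membrane. Sdhc had 131, 112 and 121 counts against 250, 340 and 251, with a log2 fold change of 1.31 and a standard error of 0.24 (edgeR adjusted p = 0.000166). Sdhd, at chr9:50596357-50603812 of GRCm38, had 89, 83 and 161 counts in the wt libraries and 471, 973 and 277 in those labelled TKS5 KO. Its groups did not overlap, but the libraries labelled TKS5 KO differed among themselves more than those of any other member, at 323 ± 221 CPM (SD, n = 3) against 53.8 ± 8.22 CPM (SD, n = 3) in wt. Its log2 fold change was 2.58 with a standard error of 0.53 and a 95% interval from 1.31 to 3.85 (edgeR adjusted p = 0.00755). The fits that left out 1 library gave between 1.92 and 2.98, and without wt library 3 the call was lost.

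In complex III, 8 of 9 subunits were called higher and 1 lower, with a median log2 fold change of 1.09. Uqcrfs1, the Rieske iron-sulfur protein that takes the electron from ubiquinol, had 134, 123 and 170 counts in the wt libraries and 373, 667 and 521 in those labelled TKS5 KO, with no overlap. Its log2 fold change was 2.01 with a standard error of 0.24 (edgeR adjusted p = 1.04e-06). Uqcrh, which helps cytochrome c dock, had the highest mean count of the complex, with 793 ± 26.6 CPM (SD, n = 3) against 1345.7 ± 94.7 CPM (SD, n = 3) and a log2 fold change of 0.76 (edgeR adjusted p = 0.00323). The call of Uqcrh was lost with library totals alone, at 0.34, and with either correction for transcript length. Cyc1, the cytochrome c1 subunit, was called higher with a log2 fold change of 0.74, and the call was lost in 3 of the 6 fits that left out 1 library. It was lost as well with library totals alone, at 0.31, and with either correction for transcript length, at 0.52 and 0.44.

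The 2 large matrix-side core proteins of complex III went in opposite directions. Uqcrc1, at chr9:108936633-108949623 of GRCm38, had 109, 125 and 136 counts in the wt libraries and 73, 46 and 62 in those labelled TKS5 KO. This was 62.5 ± 10.6 CPM (SD, n = 3) against 32.9 ± 6.65 CPM (SD, n = 3), with no overlap, and the log2 fold change was -0.92 with a standard error of 0.24 (edgeR adjusted p = 0.00318). It kept its call in all 6 fits that left out 1 library, between -1.06 and -0.76. Uqcrc2 had 98, 153 and 190 counts against 333, 308 and 339, a log2 fold change of 1.31 (edgeR adjusted p = 2.11e-05). Its reads cannot be told apart from those of Pdzd9, which overlaps its end on the opposite strand and had 99, 152 and 192 counts against 343, 318 and 347. Counts of such overlapping genes differed by at most 3.25% for Uqcrc2 and Pdzd9, 8.87% for Ndufa2 and Tmco6, and 10.0% for Cox6a2 and Itgad. The members Ndufa3 and Ndufb6 also overlap a gene on the opposite strand, Tfpt and Smim27, with differences of up to 41.6% and 21.2%. Ndufaf3 likewise overlaps Impdh2, with means of 101.5 and 87 counts. On the same strand, Gm20388 and Gm22574 overlap the ends of Cox4i1 and Cox7c. They held means of 312 and 905 counts, where Cox4i1 and Cox7c held 581 and 1858. Cycs, the gene of cytochrome c itself, had 36, 51 and 71 counts in the wt libraries and 56, 60 and 73 in those labelled TKS5 KO, 25.6 ± 2.15 CPM (SD, n = 3) against 34.4 ± 3.37 CPM (SD, n = 3). The CPM did not overlap, but the log2 fold change of 0.42, with a standard error of 0.24 and a 95% interval from -0.08 to 0.93, was not called (edgeR adjusted p = 0.166).

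Of the 15 genes of complex IV, 12 were called higher and 1 lower, with a median log2 fold change of 1.12. This count includes Cox7a2l, a factor of respiratory supercomplexes, and Ndufa4l2, a paralog of Ndufa4. Cox7c, at chr13:86044816-86046904 of GRCm38, had the smallest adjusted p of the complex, with 507, 556 and 923 counts in the wt libraries and 2111, 3707 and 3342 in those labelled TKS5 KO. Its log2 fold change was 2.38 with a standard error of 0.24 (edgeR adjusted p = 8.86e-08), and the groups did not overlap. Cox8a had the highest mean count, 1013.2 ± 21.6 CPM (SD, n = 3) against 3335 ± 510.1 CPM (SD, n = 3) and a log2 fold change of 1.72 (edgeR adjusted p = 1.15e-06). Cox6c and Cox5b rose by 1.82 and 1.47 on the log2 scale. The share of the members' counts that fell on complex IV was 27.5%, 27.9% and 28.3% in the wt libraries and 31.5%, 34.0% and 35.6% in those labelled TKS5 KO. No other complex took a larger share of the members' counts in each library labelled TKS5 KO than in each wt library. Such shares weigh abundant genes most. Cox8a, Cox6c and Cox7c had the highest mean counts of complex IV. Their mean CPM were 1013, 964 and 322 in wt libraries and 3335, 3403 and 1679 in those labelled TKS5 KO. The share of complex IV without these 3 genes was not computed, so it is not shown to be a shift of the whole complex.

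**Figure D3:**
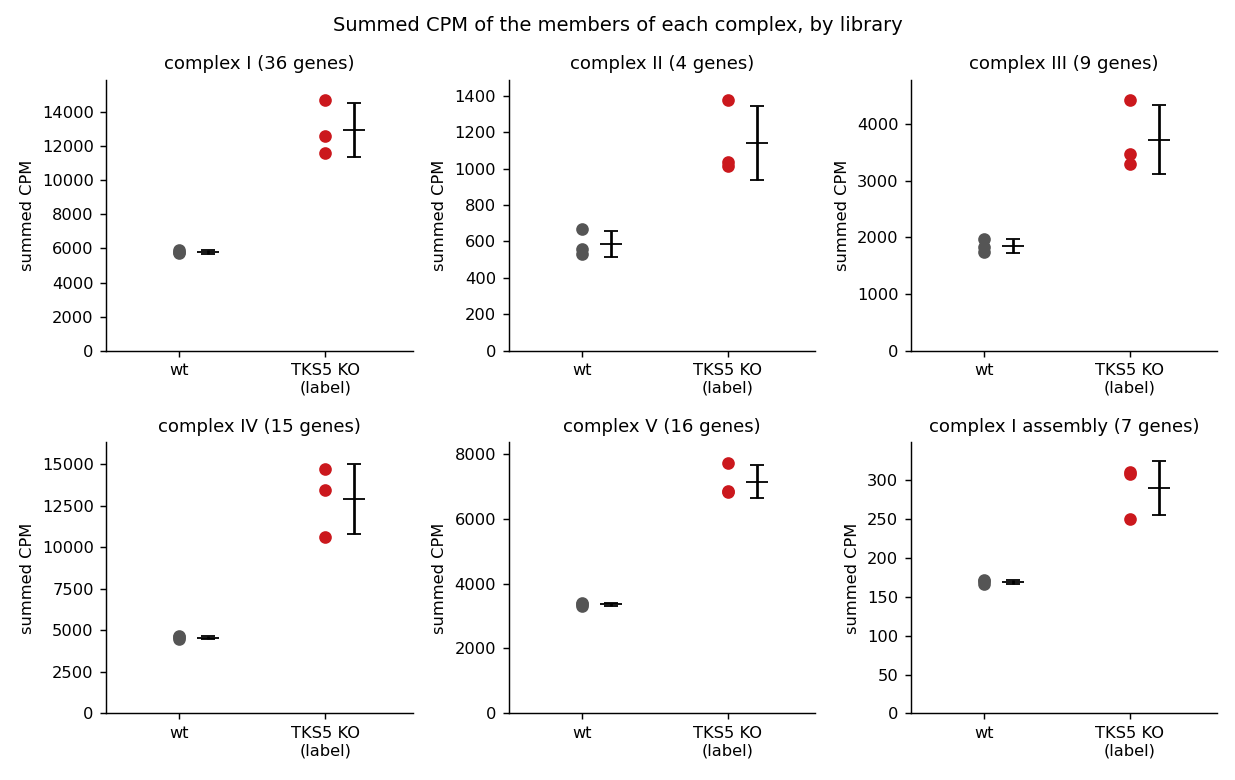
Summed CPM of the members of 5 complexes and of the assembly factors of complex I in each library, with points for single libraries and a bar for the mean ± SD of 3. In each panel the 3 libraries labelled TKS5 KO lie above the 3 wt libraries, and the ratio of the means is between 1.71 for the assembly factors and 2.83 for complex IV.

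Several subunits of complexes IV and V are made from more than 1 gene, and the alternative genes are known for expression in particular tissues. Of the ubiquitous Cox8a and the heart and skeletal muscle form Cox8b, the first was called higher and the second lower. Cox8b had 19, 37 and 56 counts in the wt libraries and 11, 12 and 24 in those labelled TKS5 KO, with CPM that overlapped, a log2 fold change of -1.06 and a standard error of 0.36 (edgeR adjusted p = 0.0195). That call was lost in 4 of the 6 fits that left out 1 library and with DESeq2. Cox6a1, the form of most tissues, had 356 ± 86.4 CPM (SD, n = 3) against 485 ± 75.3 CPM (SD, n = 3), and its heart and muscle form Cox6a2 had 5.44 ± 0.811 against 9.02 ± 2.77 CPM (SD, n = 3). Both overlapped between the groups and neither was called, with adjusted p of 0.105 and 0.17 by the edgeR test. Cox4i1 had 413, 478 and 541 counts against 594, 637 and 823, a log2 fold change of 0.63 (edgeR adjusted p = 0.0144), lost without wt library 3 or library 3 labelled TKS5 KO. The call of Cox4i1 was also lost with library totals alone, at 0.21, and with either correction for transcript length, at 0.037 and -0.082. Its alternative Cox4i2, which is known from lung and from low oxygen, had between 0 and 2 counts in each library.

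Cox6b1 had 662, 699 and 985 counts in the wt libraries and 1492, 2100 and 2078 in those labelled TKS5 KO, and rose by 1.42 on the log2 scale. The testis form Cox6b2, which is not a member, had 7, 28 and 20 counts against 1, 0 and 3, a ratio of the summed counts of 0.0811 after scaling, with a 95% interval of 0.0214 to 0.22 that covers counting error only. Cox7a2 was called higher with a log2 fold change of 1.17 and Cox7a2l with 0.77, while the heart form Cox7a1 had between 2 and 6 counts in each library. The call of Cox7a2l was lost with library totals alone, at 0.34, and with either correction for transcript length, at 0.28 and 0.25. That of Cox7a2 was lost with the correction for the principal coding transcript, at 0.39. Ndufa4, once counted with complex I and now as a subunit of complex IV, had 39, 27 and 56 counts against 126, 149 and 141, with a log2 fold change of 1.92 (edgeR adjusted p = 2.08e-06). Its paralog Ndufa4l2, known as a target of the hypoxia response, had 57, 64 and 67 counts against 124, 75 and 118, with a log2 fold change of 0.86 (edgeR adjusted p = 0.00626), a call that was lost with library totals alone and with either correction for transcript length. Shmt2 overlaps its end on the opposite strand and had 81, 93 and 131 counts against 176, 105 and 165, so the reads of Ndufa4l2 are also uncertain.

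In complex V, 14 of 16 members were called higher and 0 lower, with a median log2 fold change of 1.01, and 14 were called in each of the 6 fits that left out 1 library. All 4 members of the peripheral stalk, 6 of the 7 in the membrane part and 4 of the 5 of the catalytic head and central stalk were called higher. With library totals alone 9 of the 16 were, among them 3 of the stalk, 5 of the membrane part and 1 of the head, where Atp5a1, Atp5b and Atp5e lost their calls. With the correction for the principal coding transcript 1 of the 4 stalk members was called higher. In the head, Atp5b and Atp5a1, the catalytic beta and the alpha subunit, had log2 fold changes of 0.89 and 0.79, and Atp5c1, the rotating gamma subunit, 1.81. Atp5d, the delta subunit beside it, was not called at -0.01. In the stalk, Atp5j and Atp5h rose by 1.62 and 1.12 on the log2 scale, and Atp5o and Atp5f1 by 0.88 and 0.69. In the membrane part Atp5l, the g subunit, had the smallest adjusted p of the complex, with 107 ± 3.67 CPM (SD, n = 3) against 397 ± 73.6 CPM (SD, n = 3) and a 95% interval of the log2 fold change from 1.46 to 2.34 (edgeR adjusted p = 3.62e-07). Atp5k, the e subunit that lies beside it, had 329, 613 and 1290 counts in the wt libraries and 590, 634 and 589 in those labelled TKS5 KO. The wt libraries held both the lowest and the highest CPM of Atp5k, at 212 and 478, and its log2 fold change was -0.04 with a 95% interval from -0.53 to 0.46.

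The 3 genes of subunit c, whose mature proteins form the turning ring, were all called higher. Atp5g3 had 1652, 1539 and 1947 counts in the wt libraries and 3920, 3977 and 4179 in those labelled TKS5 KO, a log2 fold change of 1.34 with a standard error of 0.21 (edgeR adjusted p = 2.45e-05). Atp5g1 had 111, 183 and 268 counts against 269, 268 and 360, and its log2 fold change was 0.86 (edgeR adjusted p = 0.00207). Atp5g2 had 11, 14 and 18 counts against 39, 30 and 42, with a log2 fold change of 1.51 (edgeR adjusted p = 0.000757). The CPM of the 2 groups did not overlap for any of the 3 genes. The call of Atp5g1 was lost with library totals alone, at 0.44, and that of Atp5g2 with the correction for the principal coding transcript, at 0.79.

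Reads of some members cannot be told apart from those of near-identical copies elsewhere in the genome. The end of Atp5g2 is matched over 296 bases at 100% identity by the gene Gm10175, which held a mean of 379 counts where Atp5g2 held 25.7. Atp5l2-ps and Gm10221 match Atp5l and held means of 1037 and 683 counts, where Atp5l held 471.5. Gm12338 matches Cox7c and held a mean of 1009.3 counts, where Cox7c held 1858, and BC002163 matches Ndufs5 with 204 counts against 90.2. The log2 fold changes of these 5 copies were 1.24, 1.85, 1.78, 2.23 and 1.23, each called higher, like the members they match. The end of Ndufaf7 lies in a repeat found in 44 other genes. Of the 72 members whose copies held under 1% of the member's own counts, 52 were called higher and 3 lower, with a median log2 fold change of 0.93. The mouse gene Ndufb1-ps is annotated as a long non-coding RNA and was therefore not a member, and it had 139, 167 and 193 counts against 506, 609 and 392.

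Transcript length went together with the fold change across the genome. Among the 10251 other tested genes of known length, Spearman's rho between the length of the longest transcript and the log2 fold change was -0.39, as a description, since these genes share the same 6 libraries. The members are short, with a median longest transcript of 1135 bases and quartiles of 764.5 and 1901, where other tested protein-coding genes had a median of 3437 bases. Among the 88 members, rho between length and log2 fold change was -0.12.

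**Figure D4:**
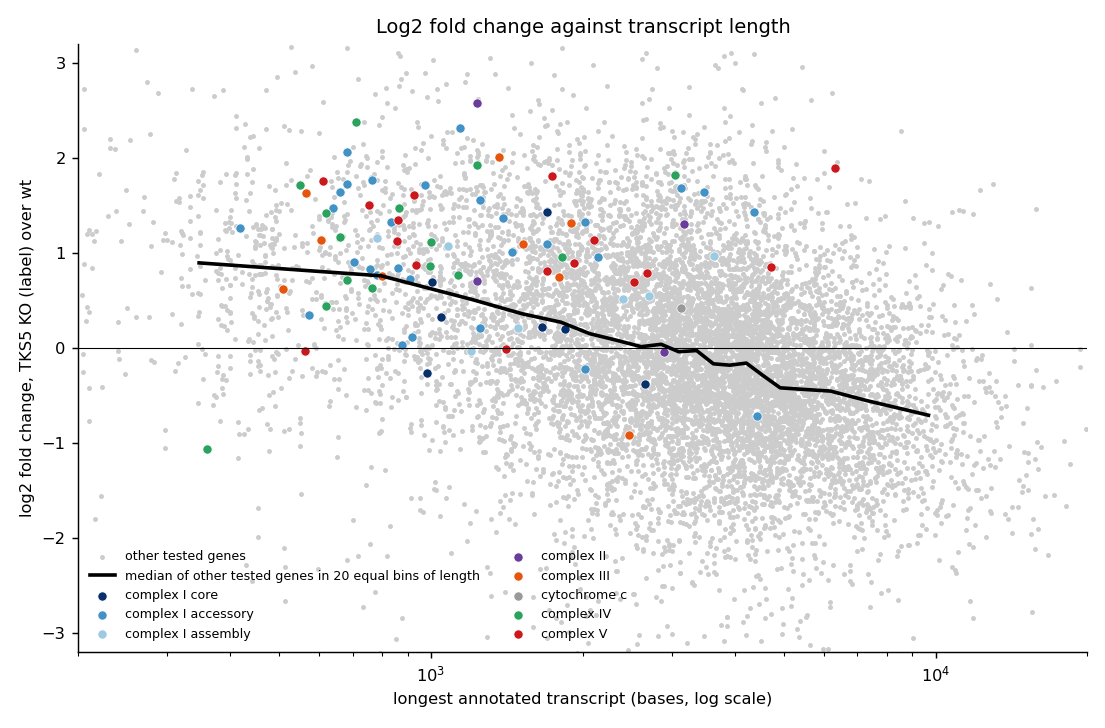
Log2 fold change against the length of the longest annotated transcript (bases, log scale) for the 88 members, coloured by complex, and for other tested genes in grey, with a black line for their median in 20 bins of equal numbers of genes. The median line of the other genes falls with length and most members lie above it, and 112 other genes beyond ±3.2 and 175 beyond the plotted lengths are not shown.

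Read by class of the longest annotated transcript, the members stood above other genes of the same class in all 4 classes. Of the 39 members under 1 kb, 31 were called higher (79.5%) and 1 lower, with a median log2 fold change of 1.14. Of the 1023 other tested genes under 1 kb, 55.0% were called higher, with a median of 0.84. Between 1 and 2 kb, 21 of 28 members (75%) were called higher with a median of 0.98, against 36.1% and a median of 0.36 for the other 1663 genes. Between 2 and 4 kb, 10 of 17 members (58.8%) were called higher with a median of 0.79, against 21% and -0.04 for the other 3877. Of the 4 members over 4 kb, 3 were called higher and 1 lower, against 8.49% higher and a median of -0.42 for the other 3688 genes. The distance of the medians from other genes was thus narrowest in the class under 1 kb, which holds the most members. By the principal coding transcript, used below, 79.6% of 49 members under 1 kb were called higher, with a median of 1.14. The other 561 genes of that class had 56.9% and 0.80. Between 1 and 2 kb, 29 members had 69.0% and 0.89, against 35.5% and 0.34. Between 2 and 4 kb, 8 members had 50% and 0.61, against 16.9% and -0.12. Only 2 members were over 4 kb by this length, and both were called higher. No test of the distances in either set of classes was made.

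The fit was then repeated with loess offsets that take the dependence on transcript length out of each library. With the longest transcript, 48 members were called higher, where 20.9% of all genes tested were, and 5 were called lower, where 17.9% were. The median log2 fold change of the members was then 0.58, against 0.02 over all genes. The longest annotated transcript of some members is not the one that makes the protein, for instance 6310 bases for Atp5l where the principal coding transcript has 544, and 4435 against 623 bases for Ndufb7. With the length of the principal coding transcript, a correction chosen after seeing the data, 40 members were called higher, where 22.3% of all genes were, and 8 lower, where 17.1% were, and the median of the members was 0.45. Genes without such a transcript were left uncorrected, and 9368 tested genes other than the members had one. Of the 9491 protein-coding genes tested, 1911 were called higher and 1697 lower in this fit, with a median of 0.009. The share of higher calls among the called members thus fell with this correction, and its split of 40 to 8 stands beside the 65 to 3 without it. Whether short transcripts gained reads in the cells or in library preparation was not tested.

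**Figure D5:**
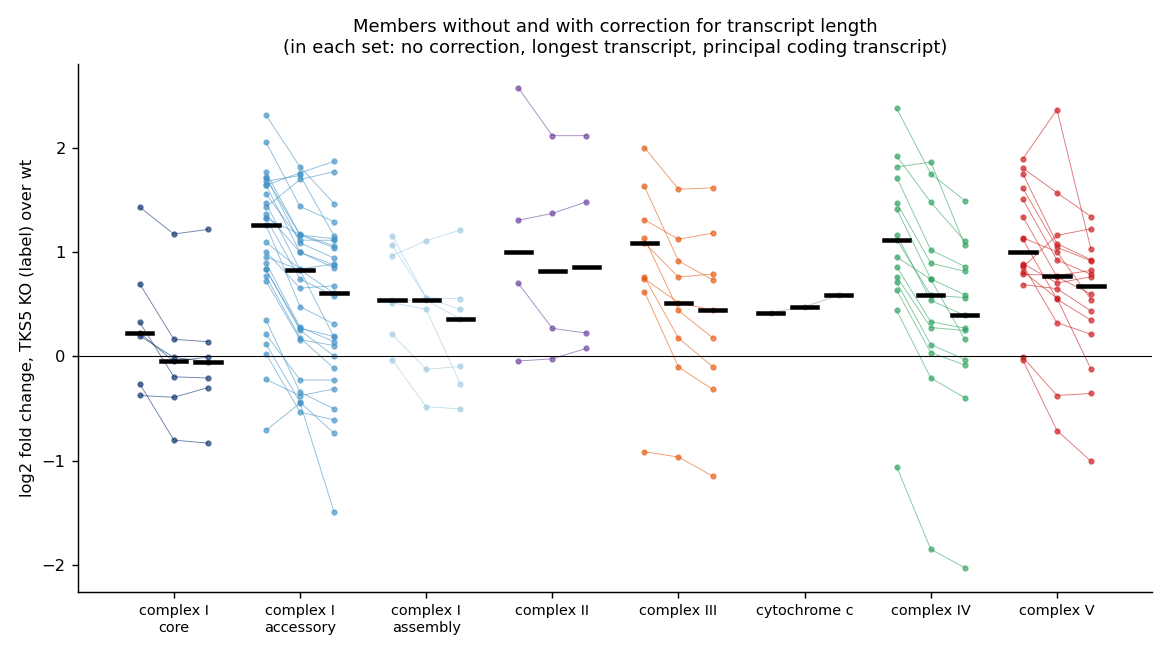
Log2 fold change of each member in 3 fits, from left to right in each set without correction, with correction for the longest transcript, and with correction for the principal coding transcript, with a bar for the median of the complex. The medians fall from 1.27 to 0.83 and 0.61 for the accessory subunits of complex I, and from 0.23 to -0.05 in both corrections for the core subunits.

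The complexes kept their members' direction to different extents under these corrections. With the longest transcript, the medians were 0.83 for accessory and -0.05 for core subunits of complex I, 0.82 for complex II, 0.52 for complex III, 0.59 for complex IV and 0.77 for complex V. The members called higher were 17 of 29 accessory and 1 of 7 core subunits of complex I, 2 of 4 in complex II, 4 of 9 in complex III, 9 of 15 in complex IV and 13 of 16 in complex V. Atp5k and the core subunit Ndufs7 were among the 5 called lower, and Ndufb7 was not, with a log2 fold change of -0.45. With the principal coding transcript, Ndufb7 was called lower again at -1.50, and the members called higher in complex V were 9 of 16. Uqcrc1 was called lower in both, at -0.97 and -1.15, and so was Cox8b, at -1.85 and -2.03. Ndufa6, Cox7c, Uqcrfs1 and Atp5l remained called higher in both, with log2 fold changes between 1.03 and 2.37. Among the members, Spearman's rho of the log2 fold change with GC content of the transcript was -0.36 over 88 genes, as a description.

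Promoters of the members were read from RefSeq tables of GRCm38.p6, which hold 250 bases before and 50 after each start. There were 77 promoters for 72 of the 88 members. They were searched on both strands for GCGCATGC, a site of the factor NRF1, for CCGGAAGT, a site of GABPA and other ETS factors, and for AAGATGGC, a site of YY1, all known from promoters of respiratory chain genes. NRF1 letters were found in 13 of the 77 (16.9%) and in 5.20% of the 9646 promoters of other tested genes. YY1 letters were found in 11 (14.3%) against 4.80%, and GABPA letters in 5 (6.49%) against 8.78%. Of all 32851 promoters in the table, 2.71%, 2.75% and 3.89% held the NRF1, YY1 and GABPA letters. NRF1 letters were in 12.5% of the promoters of members called higher and in 28.6% of those of the other members, and YY1 letters in 17.9% and 4.76%. At least 1 of the 3 was in 20 of the 56 promoters of members called higher (35.7%) and in 8 of the 21 promoters of the other members (38.1%). The following promoters are shown, from start to end of the window, as the members called higher with the smallest adjusted p that hold each motif, and Uqcrc1 as a member called lower that holds one of them. Capitals mark the motif on either strand, which is NRF1 in Ndufa6 and Uqcrc1, GABPA in Cox8a and YY1 in Ndufc1. The windows lie at chr15:82354242-82354541 on the reverse strand for Ndufa6, chr19:7217567-7217866 on the reverse strand for Cox8a, chr3:51408906-51409205 on the reverse strand for Ndufc1 and chr9:108936398-108936697 on the forward strand for Uqcrc1.
Ndufa6: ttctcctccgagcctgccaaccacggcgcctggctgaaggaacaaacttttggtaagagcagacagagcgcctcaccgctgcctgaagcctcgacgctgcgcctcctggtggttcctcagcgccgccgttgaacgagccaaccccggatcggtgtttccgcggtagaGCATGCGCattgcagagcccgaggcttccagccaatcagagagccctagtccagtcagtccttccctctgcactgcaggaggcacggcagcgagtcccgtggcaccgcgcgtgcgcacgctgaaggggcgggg
Cox8a: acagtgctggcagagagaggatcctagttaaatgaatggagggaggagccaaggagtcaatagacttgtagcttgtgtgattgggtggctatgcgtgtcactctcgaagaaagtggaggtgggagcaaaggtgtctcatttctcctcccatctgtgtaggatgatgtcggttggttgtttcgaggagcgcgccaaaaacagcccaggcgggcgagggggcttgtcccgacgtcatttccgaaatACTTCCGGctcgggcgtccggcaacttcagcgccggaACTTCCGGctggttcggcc
Ndufc1: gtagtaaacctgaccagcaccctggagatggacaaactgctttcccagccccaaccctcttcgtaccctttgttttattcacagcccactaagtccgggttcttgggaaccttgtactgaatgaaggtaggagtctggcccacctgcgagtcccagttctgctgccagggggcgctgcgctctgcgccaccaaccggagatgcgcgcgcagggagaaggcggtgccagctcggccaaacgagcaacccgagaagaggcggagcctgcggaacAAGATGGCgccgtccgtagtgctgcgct
Uqcrc1: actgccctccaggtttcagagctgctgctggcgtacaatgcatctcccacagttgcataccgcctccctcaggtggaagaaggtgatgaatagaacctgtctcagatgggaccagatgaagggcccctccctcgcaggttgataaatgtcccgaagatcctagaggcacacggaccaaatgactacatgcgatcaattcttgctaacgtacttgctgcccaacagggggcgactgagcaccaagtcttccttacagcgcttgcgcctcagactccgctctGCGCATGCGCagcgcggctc
The same NRF1 letters thus stood before Ndufa6, which had a log2 fold change of 2.32, and before Uqcrc1, which had -0.92. A match of letters is a description and not a measured site.

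Other genes that the respiratory chain depends on were read from lists of fixed names. Of all genes tested, 22.8% were called higher and 22.1% lower. Of the 34 assembly factors outside the name rule that were tested, 16 were called higher and 1 lower, with a median log2 fold change of 0.62. Scaled by library totals alone, 13 of them were called higher and 3 lower, with a median of 0.20. Higd1a, a hypoxia-induced factor of complexes III and IV, had 453, 404 and 493 counts in the wt libraries and 2575, 2435 and 3588 in those labelled TKS5 KO, a log2 fold change of 2.76 (edgeR adjusted p = 1.03e-08). Cox17, the copper chaperone of complex IV, and Tmem70, an assembly factor of complex V, rose by 2.14 and 1.98 on the log2 scale. Of the 7 tested genes of ATP export and ATPase regulation, 5 were called higher and 0 lower, among them the ADP/ATP carrier Slc25a5 and the outer membrane channels Vdac3 and Vdac1, with log2 fold changes of 2.03, 1.49 and 1.32. Scaled by library totals alone, 5 of these 7 were called higher and 1 lower, with a median of 0.81. Of the 17 tested genes of the tricarboxylic acid cycle and its entry, 9 were called higher and 1 lower, led by Pdhb, Suclg1 and Idh2 with log2 fold changes of 1.80, 1.18 and 1.02. With library totals alone 2 were called higher and 3 lower.

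Of the 13 tested genes of coenzyme Q synthesis, 4 were called higher, where 22.8% of all genes tested were, and 2 lower, where 22.1% were. Their median log2 fold change was 0.22. With library totals alone the median was -0.20, with 1 called higher and 3 lower. Coq3, a methyltransferase of the pathway, had 43, 43 and 65 counts in the wt libraries and 120, 107 and 145 in those labelled TKS5 KO. The log2 fold changes of Coq2 and Pdss1 were 1.06 and 0.81. Of the 9 tested Ensembl entries of other redox enzymes of the inner membrane, 2 were called higher, a share near that of all genes tested, and 2 lower. The 2 called lower are both named Nnt, the proton-translocating transhydrogenase. Their counts were nearly equal, so they are not 2 separate results. Gpd2 was called higher with 0.80. With library totals alone 0 of the 9 entries were called higher, Gpd2 included, and 3 lower. Of the 9 tested regulators of mitochondrial biogenesis, 2 were called higher, a share near the 22.8% of all genes tested, and 1 lower, with a median of 0.13. With library totals alone 0 were called higher and 1 lower, with a median of -0.30. Esrra and Tfam, which drive nuclear and mitochondrial genes of respiration, had log2 fold changes of 0.92 and 1.13, and Polrmt, the mitochondrial RNA polymerase, had -1.07. The CPM of Tfam overlapped between the groups. The 13 subunits encoded by mitochondrial DNA matched 0 genes of the tables and were not analysed here.

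Ribosomal proteins, which are also made from many short mRNAs, were read as the parts most like the members. Of the 78 mitochondrial ribosomal proteins tested, 45 were called higher and 1 lower, with a median log2 fold change of 0.78, and with library totals alone 25 higher and 7 lower, with a median of 0.34. Of the 83 cytosolic ribosomal proteins tested, 73 were called higher and 0 lower, with a median of 1.19, and with library totals alone 55 higher and 1 lower, with a median of 0.76. The members, at 65 of 88 and a median of 0.96, lay between them. With the correction for the longest transcript the medians were 0.51, 0.73 and 0.58 in the same order of mitochondrial, cytosolic and oxidative phosphorylation genes. No test of the difference between these lists was made, and the rise is therefore not called particular to the oxidative phosphorylation genes.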

How the data were processed

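Quant-Seq libraries of TGFβ-treated mouse LFs, 3 labelled wt and 3 labelled TKS5 KO, were compared. According to the methods, the authors cleaned reads with Trim Galore, mapped them to GRCm38 (HISAT2, and Bowtie2 for reads left over) and used metaseqR2 to make the deposited raw counts, which are sums over the 3′ UTR regions of a gene. The normalized table, which the authors made with EDASeq and rounded to whole numbers, was used as a score in 1 alternative. Whether counting kept to 1 strand is not given in the sources used here. Counts of Uqcrc2 and Pdzd9, on opposite strands, differed by at most 3.25%, so the reads of these genes were not kept apart by strand. Genes were matched by Ensembl identifier to GENCODE M21.

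The raw counts were tested with the robust quasi-likelihood F test of edgeR 4.0.16 in R 4.3.3, after filterByExpr and TMM scaling, with Benjamini-Hochberg adjustment over all 10346 genes tested. CPM use the TMM-scaled library sizes. Single members were also compared by exact permutation tests. Length was taken from the longest transcript or, chosen after seeing the data, the principal coding one, and corrected by loess offsets (span 0.5, prior count 2). The other alternatives were other scalings (RLE, upper quartile, library totals), DESeq2 1.42.0, the normalized table as log2(value + 1) with limma 3.58.1, other filters and thresholds, a GC correction, a block for the replicate number, and fits without 1 library. Near-identical copies were searched with BLAST 2.17.0 (identity of 95% or more over 100 bases or more).

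Named genes were Sh3pxd2a, in each complex the member with the smallest adjusted p in each direction and that with the highest mean count, alternative genes of a subunit, complex II, Cycs, members called against most, further called members in order of adjusted p, and 3 called genes of each other list. Other members that were not called, and marker genes, are named after their values were seen. The values of 1 member are not reported singly here. The members and lists were chosen with earlier results of these data known.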

Additional observations from a re-analysis of the deposited data

How the results depend on the processing

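Of the 10346 genes tested 4642 were called, and the 20 alternatives gave between 3705 and 5306. Members called higher stayed within 1.5 times of 65, except with the correction for the principal coding transcript (40), and the median log2 fold change of the members was positive in all 20. Members called lower were 3, and became 6 with library totals, 5 with the correction for the longest transcript, alone or with the replicate block, and 8 with the principal coding transcript. The median of 0.96 moved by more than the spread between replicates with library totals (0.54), the authors' normalized table (0.80), the corrections for length (0.58), for length and GC (0.60), for length with the replicate block (0.59) and for the principal coding transcript (0.45), and without library 1 labelled TKS5 KO (1.09). Leaving out 1 library gave medians between 0.93 and 1.09, 60 to 66 members called higher and 1 to 3 lower, the 1 without library 2 labelled TKS5 KO. Of the 68 called members 34 kept their call in all 20 alternatives, and 58 of the members called higher did so in all 6 fits without 1 library.

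The sign differed in any alternative for 21 of the 88 members, 5 of them called. Among those given one by one, library totals gave -0.0016 for Cycs, -0.10 for Ndufs3, -0.20 for Ndufv1 and -0.13 for Sh3pxd2a. The correction for the longest transcript gave -0.21 for Cox6a1, -0.20 for Ndufs3 and -0.048 for Ndufv1, and with GC content -0.048 for Ndufs3 and -0.022 for Uqcrh. The principal coding transcript gave -0.082 for Cox4i1, -0.40 for Cox6a1, -0.030 for Cox6a2, -0.21 for Ndufs3, -0.0061 for Ndufv1, 0.078 for Sdha and -0.098 for Uqcrh. Fits without 1 library ranged from -0.28 to 0.29 for Atp5k, from -0.62 to 0.31 for Ndufaf5, from -0.14 to 0.075 for Sdha and from -0.020 to 0.45 for Ndufv1. The cause of these changes was not tested. Cox6a2, Ndufaf5 and Ndufaf6 had 17 counts or fewer on average, the fewest of the members.

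The replicate number as a block gave 4668 called genes, 65 members higher and 3 lower, with a median of 0.96. The numbers are not stated to pair the samples. The correlations of same-numbered libraries' deviations were -0.001, -0.064 and 0.082, and those of unlike numbers ran from -0.10 to 0.097. Such weak correlations do not show a pairing and cannot exclude one. Under the block Atp5k had 0.037, and with the length correction and the block Cox6a1 had -0.20, Ndufs3 -0.20 and Ndufv1 -0.070.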
